A study of Mus musculus with 8 samples.

Results

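Serpina genes encode secreted serpins of the liver and other tissues, and 10 of them, matched by symbol to the gene identifiers of the deposited data, are described here among the 23634 and 21201 genes of 2 tables of the authors' own comparison. They are Serpina12 (vaspin), Serpina6 (corticosteroid-binding globulin), the alpha-1-antitrypsin copies Serpina1a, Serpina1b, Serpina1c, Serpina1d and Serpina1e, and the antichymotrypsin-like Serpina3k, Serpina3m and Serpina3n. Of the 10, 8 had a row in each table. Serpina1d and Serpina3k had none in either, so no value can be given for them. The family was chosen by the deposited genotype fold changes of Serpina12 and Serpina1e, so the genotype values of its members are a description and support nothing further.

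The series holds 8 RNA libraries from mouse liver, in 4 groups of 2: total liver RNA of Cpeb4 knockout and of wild-type mice, and RNA of the purified endoplasmic reticulum (ER) of either genotype. For the ER preparations the mice had been fasted overnight. The labels give no age, sex or strain, no feeding state for the total liver RNA, and no statement on which cells lack Cpeb4 or whether both preparations came from the same mice. The CPEB4 protein binds U-rich elements in the 3' untranslated region (UTR) of mRNAs and regulates their polyadenylation and translation.

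The 2 tables are called larger and smaller by their number of genes. Neither names its RNA preparation or the direction of its comparison, and neither gives values per library. Cpeb4 had the lowest p of each table with a negative log2 fold change, so negative values are read as lower in the knockout. That reading was taken from the data. In the authors' deposited tables the log2 fold change of Cpeb4 was -1.16 ± 0.11 (SE) and -1.10 ± 0.13. All 7 hepatocyte markers listed, such as Alb and Apoa1, were tested in both tables, and Alb had mean counts of 1307220 and 555793. The mean normalised counts of all genes summed to 37351700 (larger) and 36848700 (smaller).

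Serpins inhibit proteases by offering a bait, the reactive centre loop, which the protease cuts before it is trapped in an inactive complex. Alpha-1-antitrypsin, made in hepatocytes and secreted through the ER in large amounts, protects tissue from neutrophil elastase. Some family members inhibit no protease and carry hormones instead, among them corticosteroid-binding globulin and thyroxine-binding globulin. Vaspin was described as an adipose-tissue serpin linked to insulin sensitivity and inhibits a kallikrein. In the mouse the alpha-1-antitrypsin gene and the antichymotrypsin gene have each multiplied into a cluster of copies.

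The alpha-1-antitrypsin copies are so alike that their sequences bear on how reads could be assigned to each of them. Between 96.3% and 98.5% of aligned coding bases were identical in the 10 pairs of the 5 copies (GENCODE release M21 transcripts, GRCm38). The 75 bases in which the copies differ most held 19 variable positions, or 25.3%, against 11.8% of the whole alignment and a median of 4 positions per window. This stretch ends 69 bases before the end of the coding sequence. By its place it covers a part of the reactive centre loop, which sets which protease is inhibited, but the loop was not mapped here. The stretch is shown 5' to 3' for each copy. Capitals mark, in Serpina1a, every position at which any copy differs, and in the other copies the bases that differ from Serpina1a.
Serpina1a: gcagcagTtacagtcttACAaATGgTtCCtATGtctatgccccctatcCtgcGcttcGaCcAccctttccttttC
Serpina1b: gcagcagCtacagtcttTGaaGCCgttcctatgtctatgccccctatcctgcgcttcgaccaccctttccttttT
Serpina1c: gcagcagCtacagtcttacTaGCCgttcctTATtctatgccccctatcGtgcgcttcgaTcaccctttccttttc
Serpina1d: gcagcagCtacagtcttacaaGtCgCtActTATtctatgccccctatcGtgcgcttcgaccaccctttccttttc
Serpina1e: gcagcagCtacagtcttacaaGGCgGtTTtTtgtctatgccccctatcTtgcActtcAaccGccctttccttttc
Serpina1e stood farthest from Serpina1a in this window, with 12 differences, and Serpina1b nearest, with 7. Serpina1c and Serpina1d differed from each other at 5 positions. Over the window Serpina1e differed from each other copy at 10 or 12 positions.

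Shared sequence was measured as the percent of a gene's 31-base words that also occur in another annotated gene. Serpina1c had the highest share, 85.8%, with 77.5% of its words in Serpina1a. Serpina1a shared 65.2%, Serpina1d 64.7%, Serpina1e 54.2% and Serpina1b 44.7%. In Serpina1e, 38.8% of words also occurred in Serpina1b, 37.6% in Serpina1d, 37.3% in Serpina1c and 36.2% in Serpina1a, and 727 of its 1587 words were found in no other gene. The pseudogene Gm8893 held 30.1% of the words of Serpina1e and 53.0% of those of Serpina1c. Serpina3m shared 35.0%, most of them with Serpina3k, Serpina3k 24.2% and Serpina3n 21.6%. Serpina12 and Serpina6 shared no 31-base word with any annotated gene. Their coding sequences were 48.3% identical to each other, and Serpina12 was 52.7% to 53.2% identical to the alpha-1-antitrypsin copies. The authors' treatment of reads that map to several genes is unknown here, so the values of the Serpina1 and Serpina3 genes are uncertain in a way that those of Serpina12 and Serpina6 are not.

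**Figure D1:**
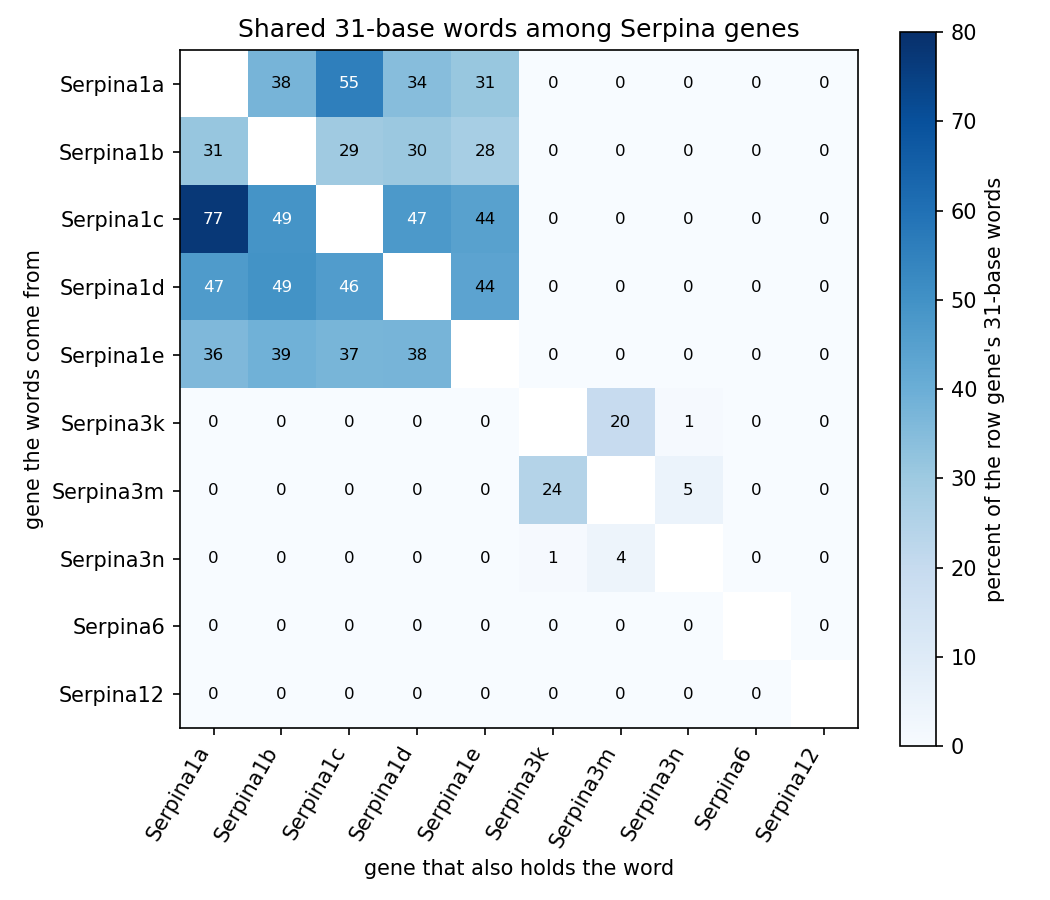
Percent of the 31-base words of the row gene that also occur in the column gene, for the 10 Serpina genes (colour scale from 0 to 80 percent, diagonal left blank). The 5 Serpina1 copies form a block reaching 77.5% for Serpina1c in Serpina1a, Serpina3k and Serpina3m share 19.7% and 24.5%, and the rows of Serpina6 and Serpina12 are 0.

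Serpina12 was the member with the largest fall. The authors' deposited tables gave it a mean normalised count of 1409 (larger) and 2546 (smaller). The means implied for the groups were 1696 in wild type and 1122 in the knockout in one, and 3151 and 1941 in the other. In the larger table the log2 fold change was -0.60 ± 0.11 (SE, 95% interval -0.81 to -0.39, the authors' Wald test, adjusted p = 5.17e-05). The smaller had -0.70 ± 0.12 (-0.93 to -0.46, adjusted p = 1.85e-05, same test). Wild-type levels were thus 1.51 and 1.62 times those of the knockout. In bulk RNA, fewer cells of a type and less RNA per cell cannot be told apart. Of all tested genes, 77.3% (larger) and 65.3% (smaller) had a log2 fold change within 0.1 of 0. The estimates look shrunken towards 0, which would understate differences. By p, Serpina12 ranked 8 of 14180 tested genes (larger) and 4 of 11661 (smaller). Of the 8 measured members it was the only 1 past the authors' threshold (adjusted p under 0.05) in the larger table, where 0.296% of all tested genes passed in either direction and 0.205% were lower. Of the members in the smaller table, 2 passed, Serpina12 lower and Serpina1e higher, against 0.266% of all tested genes in either direction and 0.103% lower. Since these calls chose the members, nothing is read from those counts.

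Serpina6, which carries glucocorticoids in plasma, had negative values of intermediate size and did not pass. The authors' deposited tables gave it a mean count of 2172 (larger) and 1497 (smaller), with implied group means of 2439 in wild type and 1904 in the knockout, and of 1708 and 1287. In the larger table the log2 fold change was -0.36 ± 0.12 (SE, 95% interval -0.59 to -0.13, adjusted p = 0.287, the authors' Wald test). The smaller had -0.41 ± 0.13 (-0.67 to -0.15, adjusted p = 0.302, same test). Its unadjusted p values were 0.00239 and 0.00195, ranks 118 and 75 of the tested genes. Both intervals lie below 0 while neither value holds after adjustment over all genes.

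Serpina1e was the member with the largest positive values. The authors' deposited tables gave it a mean count of 296414 (larger) and 122471 (smaller), with implied group means of 261677 in wild type and 331152 in the knockout, and of 98809 and 146134. In the larger table the log2 fold change was 0.34 ± 0.11 (SE, 95% interval 0.13 to 0.55, the authors' Wald test, adjusted p = 0.264). The smaller had 0.56 ± 0.13 (0.32 to 0.81, adjusted p = 0.00699, same test). In folds the knockout was at 1.27 and 1.48 times the wild type. The value passed in the smaller table and not in the larger. In the smaller, 0.163% of all tested genes were called higher, against 0.0917% for the larger. The difference between the tables itself, smaller minus larger, was 0.22 ± 0.17 (SE, 95% interval -0.10 to 0.55). It did not pass (z test, adjusted p = 1.00 over 11604 genes), so the call in 1 table does not show that the tables differ. The z test treats the tables as independent. Its z values had an SD of 0.535 over all genes, below the 1 it assumes, so it passes fewer differences than its threshold implies.

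The other measured alpha-1-antitrypsin copies stayed near 0. In the authors' deposited tables, larger first, Serpina1a had 0.00 ± 0.09 and -0.06 ± 0.11, Serpina1b 0.01 ± 0.09 and -0.05 ± 0.11, and Serpina1c -0.00 ± 0.09 and -0.10 ± 0.11 (log2 fold change ± SE). None of the 3 passed the authors' Wald test in either table. Their 95% intervals together covered -0.18 to 0.19 (larger table) and -0.31 to 0.16 (smaller table). The interval of Serpina1e, whose value chose the family, is given above as a description, and nothing is read from its place beside these. The contrast between copies was not tested, since the copies share sequence and no values per library are at hand. The standard error of Serpina1e, 0.11 and 0.13, was above those of the other copies in both.

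Copies this alike can also be read as a sum, which depends less on how reads were divided among them. The mean counts of the 4 measured copies added up to 1326710 (larger) and 570285 (smaller), which was 3.55% and 1.55% of the summed mean counts of all genes. The group means implied by each copy's mean count and moderated fold change gave a summed log2 ratio of knockout to wild type of 0.08 and 0.07, with no error and no test. For Serpina1a, Serpina1b and Serpina1c alone it was 0.00 and -0.07. The implied share of Serpina1e in the sum was 20.3% in wild type and 24.3% in the knockout in the larger table, and 17.7% and 25.03% in the smaller. As a plain median the 4 copies stood at 0.01 in the larger table and, with the other sign, at -0.05 in the smaller.

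Of the antichymotrypsin-like members, Serpina3n is the acute-phase form, induced by inflammation and glucocorticoids. Its mean count was 15176 and 7659 in the authors' deposited tables, with log2 fold changes of 0.07 ± 0.11 and 0.09 ± 0.13 (SE). Serpina3m had mean counts of 53318 and 18554 and log2 fold changes of -0.03 ± 0.11 and -0.08 ± 0.12. Neither passed the authors' Wald test. Their 95% intervals, -0.15 to 0.30 and -0.17 to 0.34 for Serpina3n and -0.24 to 0.18 and -0.30 to 0.15 for Serpina3m, include 0 in each table.

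**Figure D2:**
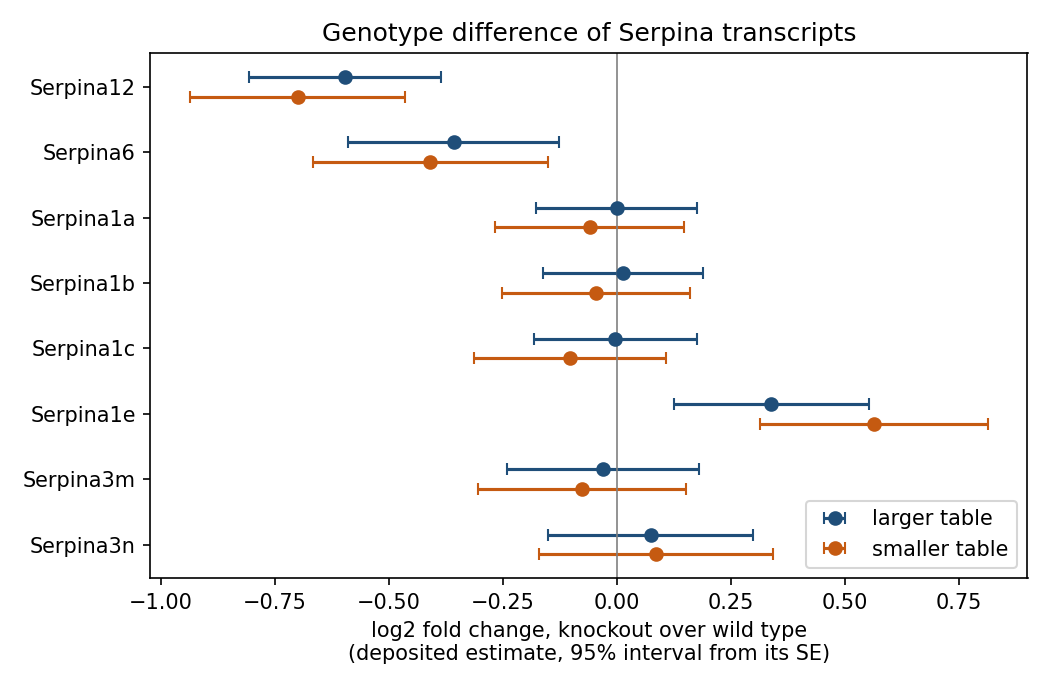
Log2 fold change of knockout over wild type for the 8 measured members (x axis, deposited estimates, bars are 95% intervals from the deposited SE) in the larger (blue) and smaller (orange) table. Serpina12 lies at -0.60 and -0.70, Serpina6 at -0.36 and -0.41, Serpina1e at 0.34 and 0.56, and the other 5 between -0.10 and 0.09.

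Of the 8 measured members, 4 were above 0 and 4 below in the larger table, with a median of -0.00, the same as that of all 14180 tested genes. The smaller had 2 above and 6 below, with a median of -0.07 against 0.00 for all 11661. The largest difference between the tables among members was that of Serpina1e. For Serpina12 it was -0.10 ± 0.16 (SE, 95% interval -0.42 to 0.21) and for Serpina6 -0.05 ± 0.18 (-0.40 to 0.30). No member passed the z test of that difference (adjusted p = 1.00 for each, and the lowest unadjusted p was 0.180, that of Serpina1e). Over all genes tested in both tables, 0.0172% were called different.

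Per kilobase of annotated exon the members spanned a wide range of levels. Serpina1a had 214511 normalised counts per kilobase in the larger table, rank 6 of the tested genes, Serpina1c 212328 (rank 7), Serpina1e 183311 (rank 10) and Serpina1b 144236 (rank 14). Serpina3m followed at 31017 (rank 91), Serpina3n at 7353 (rank 391), Serpina6 at 1233 (rank 1738) and Serpina12 at 382 (rank 3812), above the median gene at 117. The order of the first 4 was the same in the smaller table, from 93019 for Serpina1a (rank 31) to 65011 for Serpina1b (rank 47), followed by Serpina3m at 10794, Serpina3n at 3711, Serpina6 at 850.4 and Serpina12 at 689.98 (rank 2222). With the longest transcript as length the order was Serpina1a, Serpina1c, Serpina1b, Serpina1e in the larger table and Serpina1a, Serpina1b, Serpina1c, Serpina1e in the smaller, so the order below Serpina1a depends on the length used. No spread over libraries is at hand, so neighbours in this order cannot be told apart by a test, and the division of reads among the copies was not tested. The 2 lowest members, Serpina12 and Serpina6, were the 2 with the most negative log2 fold changes. The value of Serpina12 chose the family and Serpina6 did not pass, so nothing is read from this.

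**Figure D3:**
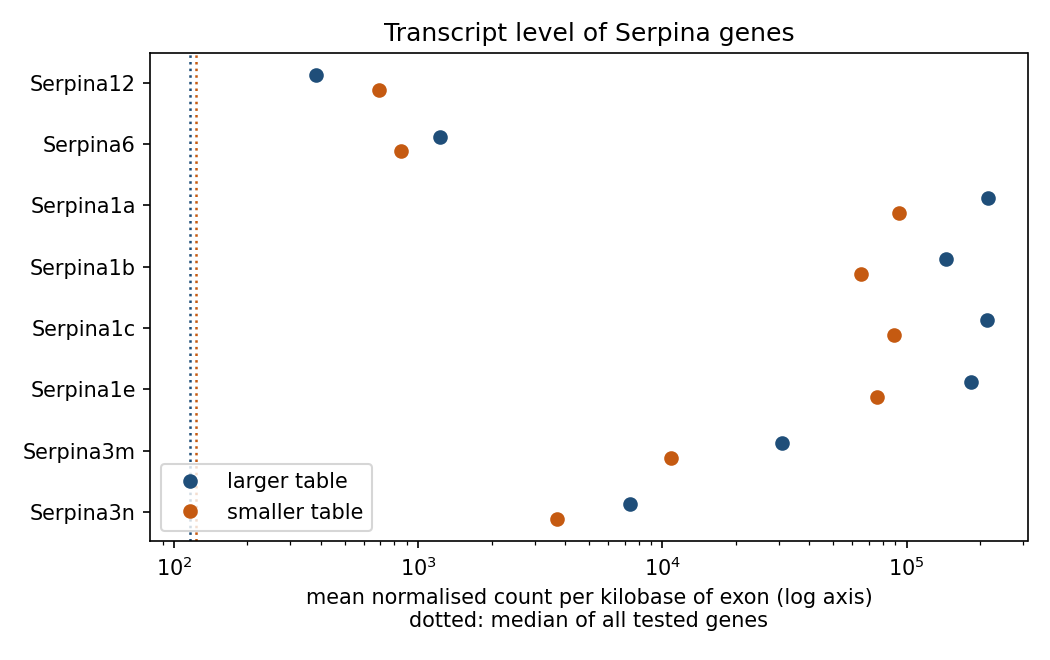
Mean normalised count per kilobase of exon (x axis, log scale) of the 8 measured members in the larger (blue) and smaller (orange) table, with dotted lines at the median of all tested genes, 117 and 123. The 4 Serpina1 copies are highest, from 65011 to 214511, and Serpina12 is the lowest member at 382 and 689.98.

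The levels differed between the tables in opposite ways for Serpina12 and the others. The mean count of Serpina12 in the larger table was 0.553 times that in the smaller, at percentile 4.87 of the 11604 genes tested in both, whose median ratio was 1.19. The alpha-1-antitrypsin copies had ratios of 2.22 to 2.42, Serpina3m 2.87, Serpina3n 1.98 and Serpina6 1.45. The tables were normalised separately and their RNA preparations are not named, so these ratios describe the tables and compare no preparations.

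Minor Serpina3 genes showed far larger ratios. In the authors' deposited tables Serpina3f had a mean count of 3292 in the larger and 50.9 in the smaller, a ratio of 64.7. Serpina3c had 1077 and 14.3 (75.4 times), Serpina3h 403 and 6.50 (62.02 times), Serpina3a 254 and 0.450 (565 times) and Serpina3b 34.8 and 1.04 (33.6 times). The pseudogene Serpina3e-ps had 4574 in the larger table and no row in the smaller. Of the 9 Serpina3 genes with a row in both tables, 5 had a ratio above 10, against 6.87% of the 13968 genes with a row in both that were tested in the larger. Among genes tested in both tables, 130 had a ratio above 10, and 102 of them shared over 25% of their words with another gene, a share that 1764 of the 11604 genes reach. The words of Serpina3f and Serpina3h were shared at 27.3% and 39.8%, those of Serpina3a, Serpina3b and Serpina3c at 7.20%, 7.99% and 16.9%. The part of shared sequence in these ratios was not tested. In the larger table all of these Serpina3 genes had log2 fold changes between -0.01 and 0.06.

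**Figure D4:**
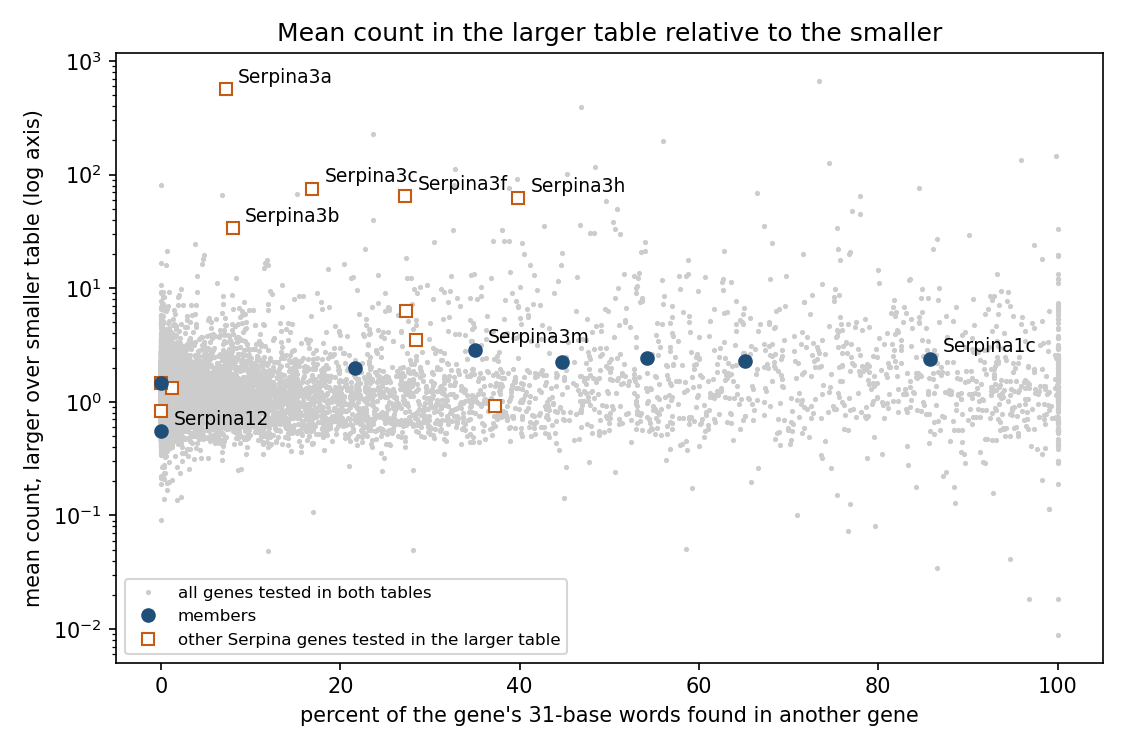
Mean count in the larger over that in the smaller table (y axis, log scale) against the percent of a gene's 31-base words found in another gene (x axis), for all genes tested in both tables (grey), members (filled) and other Serpina genes tested in the larger table (open squares). Serpina3a, Serpina3b, Serpina3c, Serpina3f and Serpina3h lie between 33.6 and 565, the Serpina1 copies between 2.22 and 2.42, and Serpina12 at 0.553.

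Both members without a row lie wholly inside the annotated span of another member on the same strand. Serpina1d (GRCm38 chromosome 12, 103763594 to 103773592, minus strand) falls within Serpina1b (103728156 to 103830373), which reaches over it through a single annotated transcript, and none of the 1394 exonic bases of Serpina1d overlap an exon of Serpina1b. Serpina3k (104338486 to 104346144, plus strand) has the same start as the longer of the annotated Serpina3m transcripts (104338486 to 104394257), with 60 of its 2057 exonic bases in common. Across the annotation 385 protein-coding genes lie wholly inside another coding gene on the same strand, and 20 of them (5.19%, larger table) and 19 (4.94%, smaller table) had a row. Of the other 21566 coding genes, 78.2% and 74.8% had one. The spans are those of GENCODE M21, as the authors' annotation is unknown here, and the part of nesting in the missing rows was not tested.

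The 10 members span 768 kb of chromosome 12 (GRCm38, 103646630 to 104414329). From the low coordinate they run as Serpina6, Serpina1b with Serpina1d inside it, Serpina1a, Serpina1c, Serpina1e and Serpina12 on the minus strand and Serpina3k, Serpina3m and Serpina3n on the plus strand. Serpina12 occupies 104028769 to 104044443 and Serpina1e 103946931 to 103958975, with their starts 85.5 kb apart. Of the members, these 2 have the most negative and the most positive values, which chose the family, so nothing is read from their nearness. Of the Serpina genes, those between them are Serpina11 (-0.05 ± 0.11 and -0.06 ± 0.13, log2 fold change ± SE in the authors' deposited tables) and Serpina9, which had mean counts of 0.202 and 0.152 and was not tested. Past Serpina12 the next gene, the pseudogene Serpina4-ps1, had -0.32 ± 0.12 and -0.21 ± 0.13 in the deposited tables of the authors, past no threshold (adjusted p = 0.517 and 0.999, Wald test). Next to Serpina6, Serpina10, an inhibitor of coagulation factors, had -0.17 ± 0.10 and -0.13 ± 0.12 in the same tables. Within the cluster and 250 kb to either side, 7 tested genes (larger table) and 6 (smaller table) are no serpins. They lay between -0.24 and 0.04 and between -0.27 and 0.09. None passed (the authors' DESeq2 Wald test), with 2 and 1 at an unadjusted p under 0.05, a level that 3.62% (larger) and 4.11% (smaller) of all tested genes reached. The lowest of them were the interferon-induced Ifi27 (-0.21 and -0.26) and Ifi27l2b (-0.24 and -0.27).

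**Figure D5:**
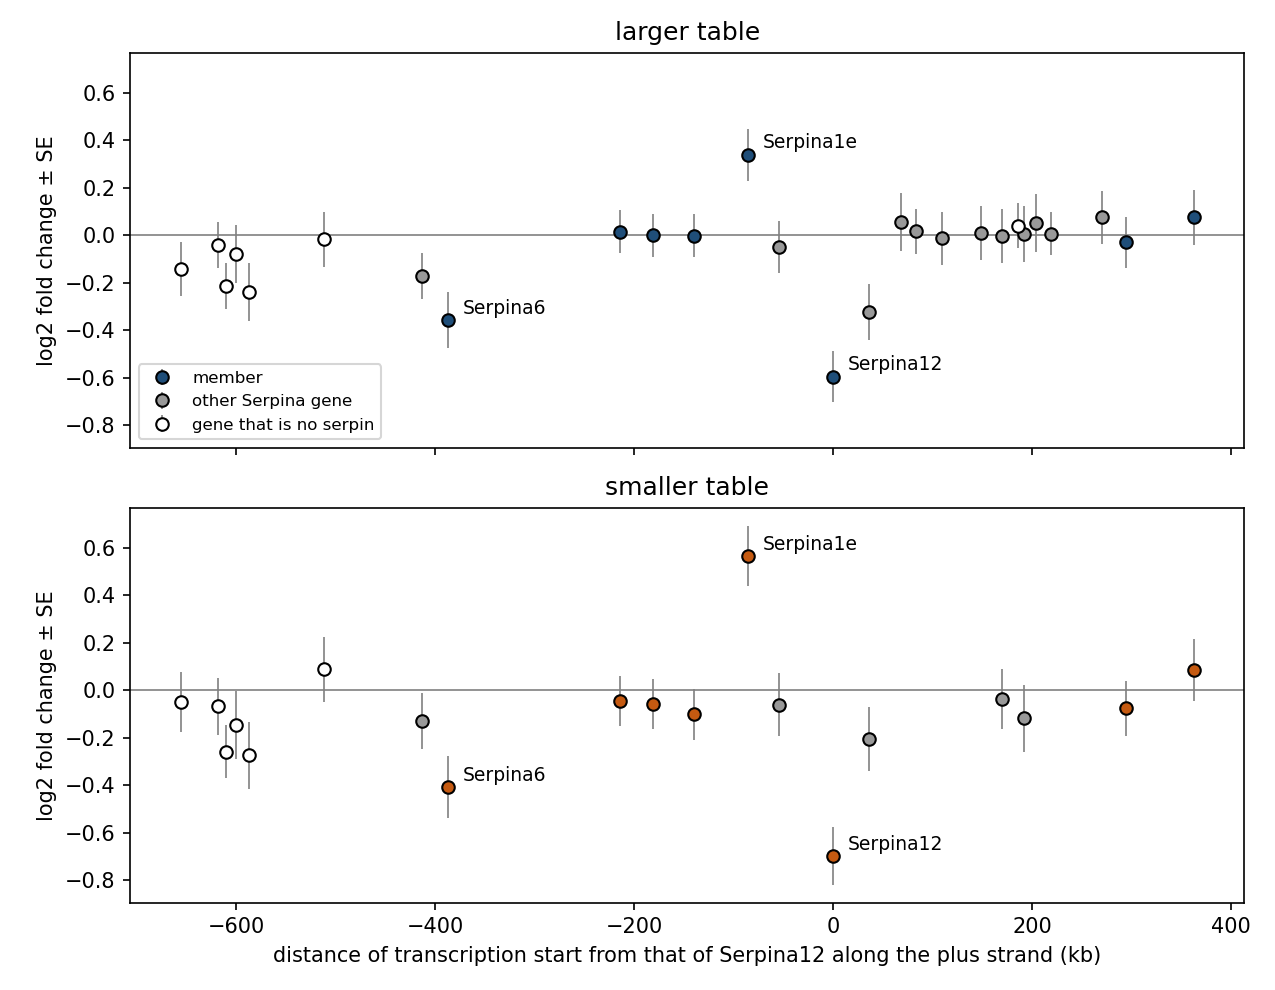
Log2 fold change ± SE (y axis) of each tested gene of the Serpina cluster and its flanks against the distance of its annotated start from that of Serpina12 in kb (x axis), larger table above and smaller below, members filled in colour, other Serpina genes grey and other genes white. Serpina12 at 0 kb is the lowest point of each panel and Serpina1e, 85.5 kb away, the highest, at 0.34 and 0.56. Starts are the outermost GENCODE ones, and those of Serpina1b and Serpina1e differ from the RefSeq starts used for the promoters.

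RefSeq promoter sequences (GRCm38.p6, from 250 bases before to 50 after the start) were found for 7 of the 10 members, namely Serpina12, Serpina3n and the 5 alpha-1-antitrypsin copies. Nothing is read from genotype values beside these sequences, since those of Serpina12 and Serpina1e chose the family. The promoters of Serpina1b and Serpina1e are shown beside that of Serpina12 because the first pair are nearly alike in sequence. They are chr12:103738140-103738439 for Serpina1b, chr12:103956848-103957147 for Serpina1e and chr12:104044394-104044693 for Serpina12, all on the minus strand and written 5' to 3'. Capitals mark GTTAAT, a core of the binding motif of the hepatocyte factor HNF1, searched on both strands.
Serpina1b: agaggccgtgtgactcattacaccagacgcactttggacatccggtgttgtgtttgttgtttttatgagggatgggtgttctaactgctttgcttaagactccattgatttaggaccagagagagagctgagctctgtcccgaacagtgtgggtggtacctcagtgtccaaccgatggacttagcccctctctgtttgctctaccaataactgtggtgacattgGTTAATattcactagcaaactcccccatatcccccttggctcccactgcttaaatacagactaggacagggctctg
Serpina1e: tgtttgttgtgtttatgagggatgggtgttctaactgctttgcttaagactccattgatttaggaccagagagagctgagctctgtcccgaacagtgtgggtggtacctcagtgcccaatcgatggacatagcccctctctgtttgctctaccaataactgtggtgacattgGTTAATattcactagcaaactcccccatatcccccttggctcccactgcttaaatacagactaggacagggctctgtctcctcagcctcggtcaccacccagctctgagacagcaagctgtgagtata
Serpina12: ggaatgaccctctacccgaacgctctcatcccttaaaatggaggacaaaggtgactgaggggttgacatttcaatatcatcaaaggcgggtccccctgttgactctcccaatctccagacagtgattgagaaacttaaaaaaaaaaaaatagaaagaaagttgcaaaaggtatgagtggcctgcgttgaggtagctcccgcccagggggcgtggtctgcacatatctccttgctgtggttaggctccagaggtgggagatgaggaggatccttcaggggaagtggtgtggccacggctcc
Serpina1e and Serpina1b were identical at 98.4% of 248 aligned bases, and Serpina1e and Serpina12 at 47.8% of 201. The RefSeq start of Serpina1e lies further downstream, so the same GTTAAT begins at -78 in Serpina1e and at -26 in Serpina1b, counted from the start site. GTTAAT occurred once in each of the 5 alpha-1-antitrypsin promoters, in neither that of Serpina12 nor that of Serpina3n, and in 7.10% of all 32851 RefSeq promoters. TTGCNNAA, a form of the motif of C/EBP factors, which drive liver and acute-phase genes, was found in Serpina12 at -90, in Serpina1a, Serpina1b, Serpina1d and Serpina1e, and in 10.8% of all promoters. A match of these letters is a description and no evidence of binding.

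CPEB proteins bind the cytoplasmic polyadenylation element, written here as TTTTAT or TTTTAAT in the sense strand, so the 3' UTRs of the members were searched for it (1 GENCODE M21 transcript per gene). Serpina12 has a 3' UTR of 2250 bases with neither form. Of the 2879 tested genes with a 3' UTR within 1.5 times that length, 86.5% held at least 1. The alpha-1-antitrypsin copies have 3' UTRs of 86 or 87 bases, Serpina6 of 216 and Serpina3n and Serpina3k of 723, and none of them held either form, against 11.3% of genes of the length of Serpina1a, 22.6% of that of Serpina6 and 53.8% of that of Serpina3n. Serpina3m alone had a match, 68 bases before the end of its 330-base 3' UTR, shown with TTTTAT in capitals.
Serpina3m: gtgactcctTTTTATatatctgta
Across all 11657 tested genes with a 3' UTR, 58.9% held TTTTAT or TTTTAAT. The absence of these letters from an annotated 3' UTR says nothing about binding by CPEB4.

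Of 16 further Serpina genes listed, 12 (larger table) and 6 (smaller table) were tested. None passed (the authors' DESeq2 Wald test), with 2 and 1 at an unadjusted p under 0.05, against 3.62% and 4.11% of all tested genes. Their medians were 0.00 and -0.13, against -0.00 and 0.00 over all tested genes. Serpina7, thyroxine-binding globulin and on chromosome X, had -0.31 ± 0.12 and -0.44 ± 0.14 in the authors' deposited tables (log2 fold change ± SE, adjusted p = 0.580 and 0.242), chosen for mention after its values were seen. Like Serpina6 it carries a hormone in plasma. Among 19 serpins of other clades, 14 and 12 were tested, with medians of 0.05 and 0.02, and none passed, with 2 in each table at an unadjusted p under 0.05, to be read against the same shares. Antithrombin (Serpinc1) had -0.06 ± 0.09 and -0.12 ± 0.11 in the authors' deposited tables, and the plasmin inhibitor Serpinf2 0.14 ± 0.10 and 0.15 ± 0.12.

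Few genes listed as working with the members passed the authors' test. Of 23 proteases that serpins inhibit, 14 were tested in each table and none passed (DESeq2 Wald test). In each, 1 had an unadjusted p under 0.05, a level that 3.62% (larger) and 4.11% (smaller) of all tested genes reached. Prothrombin (F2) had -0.05 ± 0.08 and -0.10 ± 0.11 and plasminogen (Plg) 0.05 ± 0.09 and 0.02 ± 0.11 in the authors' deposited tables. All 17 transcription factors of liver serpin genes were tested, and none passed or had an unadjusted p under 0.05 (DESeq2 Wald test). Hnf4a had 0.03 ± 0.10 and 0.03 ± 0.12 and Cebpa -0.14 ± 0.09 and -0.18 ± 0.11 in the authors' deposited tables. Folding and export genes for alpha-1-antitrypsin in the ER had 17 of 21 tested members below 0 (larger) and 12 of 20 (smaller), with medians of -0.05 and -0.01. None passed or had an unadjusted p under 0.05 (DESeq2 Wald test). The chaperones Hspa5 and Calr lay between -0.04 and 0.04.

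Of 14 glucocorticoid signalling genes, listed because Serpina6 binds the hormone, 13 were tested in each table. Only Tat, an amino acid enzyme induced by glucocorticoids, passed. It had 0.70 ± 0.11 and 0.72 ± 0.12 in the authors' deposited tables (adjusted p = 4.71e-07 and 5.31e-06, DESeq2 Wald test). Among all tested genes, 0.296% (larger) and 0.266% (smaller) passed. An unadjusted p under 0.05 was found for 3 of the 13 in each, against 3.62% and 4.11% of all tested genes. Beside Tat these were Dusp1 (0.37 and 0.38), Sgk1 in the larger (0.26) and Fkbp4 in the smaller (-0.25). Fkbp5 had -0.15 ± 0.11 and -0.18 ± 0.13, and Per1 0.05 ± 0.12 and -0.03 ± 0.14. In each, 9 of the 13 lay above 0, with medians of 0.02 and 0.06. Of 22 acute phase genes, beside which Serpina3n stands, all were tested. Hamp (hepcidin) passed in the larger table at 0.47 ± 0.08 and had 0.35 ± 0.12 in the smaller, where none passed (DESeq2 Wald test). Of that list, 6 and 5 had an unadjusted p under 0.05, against 3.62% and 4.11% of all tested genes. Hp (haptoglobin) had 0.15 ± 0.11 and 0.08 ± 0.13 in the authors' deposited tables. Of 24 genes of insulin sensitivity listed beside vaspin, 22 and 21 were tested. In the authors' deposited larger table Srebf1, a lipogenic transcription factor, was lower at -0.41 ± 0.11 and Igfbp2 higher at 0.35 ± 0.09 (DESeq2 Wald test). Of all tested genes in that table, 0.296% passed. In the smaller table Srebf1 had -0.32 ± 0.13 and Igfbp2 0.25 ± 0.11, with the same signs, and neither passed. Of that list, 5 (larger) and 4 (smaller) had an unadjusted p under 0.05, against 3.62% and 4.11% of all tested genes. Medians of that list were -0.04 and -0.02.

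The genes tested in both tables whose pairs of log2 fold changes lay nearest that of Serpina12 were Lgals1 (distance 0.05), Zbp1 (0.11), Inmt (0.12), Cd36 (0.19) and Scd1 (0.23), among 11603 genes compared over the 2 tables. Lgals1 encodes galectin-1, Zbp1 a nucleic acid sensor, Inmt a methyltransferase, Cd36 a fatty acid receptor and Scd1 a stearoyl-CoA desaturase. The nearest to Serpina1e were Tpte (0.07), G6pc (0.09), Got1 (0.09), Slc7a2 (0.10) and Slc25a15 (0.10). G6pc is the glucose-releasing phosphatase of gluconeogenesis, Got1 an aspartate aminotransferase, and Slc7a2 and Slc25a15 carry cationic amino acids and ornithine. Likeness over 2 values is a description only.

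Markers of other cell types were read beside Serpina12, a gene also known from fat. Of 5 adipocyte markers, Fabp4 (log2 fold change 0.03 and 0.08) and Cfd (0.01 and -0.02) were tested in both tables, with mean counts summing to 258 and 669, and neither passed or had an unadjusted p under 0.05 (DESeq2 Wald test). In the authors' deposited tables Adipoq, the defining fat gene, and Plin1 had mean counts of 9.11 and 6.17 (larger) and of 11.1 and 1.64 (smaller). The part of fat tissue in the level of Serpina12 was not tested. Of 5 erythroid markers 2 were tested, Hba-a1 (-0.30 and -0.42) and Hbb-bs (-0.29 and -0.36), both at an unadjusted p under 0.05 and not past the threshold. Of 7 macrophage markers, 6 (larger table) and 7 (smaller table) were below 0, with medians of -0.06 and -0.09. Of the tested stellate cell markers, 5 of 5 and 3 of 4 were below 0, with medians of -0.08 and -0.05. Of the endothelial markers, 3 of 5 and 1 of 5 were below 0, with medians of -0.02 and 0.04. None of the tested macrophage, stellate cell or endothelial markers passed or had an unadjusted p under 0.05 (DESeq2 Wald test). The part of blood or macrophage content in the values of the members was not tested.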

How the data were processed

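Per the submitters' processing notes, which assign no roles, the tools were STAR 2.3.0e and DESeq2 1.6.3 and the build mm10. The authors' annotation and counting: not given in the sources used here. Per the file headers, each deposited table gives per gene a mean signal (in DESeq2, counts scaled by size factors and averaged), a log2 fold change with its SE, the score of the Wald test, and p-values before and after adjustment. Depth per library is unknown. No label says that the libraries of a group are separate mice. The p-values thus reflect only spread among libraries, which may be technical.

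Identifiers were matched to GENCODE M21 names (23484 of 23634 and 21080 of 21201). Genes with an adjusted p were taken as tested, and those under 0.05 as called by the authors' DESeq2 Wald test. A planned count test (edgeR) needs values per library and was not run. From the deposited values, differences between tables (z test, Benjamini-Hochberg), levels per kilobase of the union of exons, group means implied by the fold change with equal group sizes, and 95% intervals were computed. Words of 31 bases were compared on both strands. Coding sequences and promoters were aligned with MAFFT 7.526. The z test and word comparison were tested on simulated data. Python 3.11.15, pandas 2.3.3, numpy 2.4.6 and scipy 1.17.1 were used.

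The members and lists were chosen with earlier results of these data known. All members were named, and of each gene list those past the authors' test or else the highest means, the 5 genes nearest Serpina12 and Serpina1e in both fold changes, and the genes beside the members. Alternatives were another mean filter, median centring, leaving out genes with shared sequence, other word lengths and longest transcripts. The result of 1 gene of these lists is not reported here.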

Additional observations from a re-analysis of the deposited data

How the results depend on the processing

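Across 4 alternatives (no mean filter, a mean of at least 100 counts, median centring, and leaving out genes that share over 25% of their words), Serpina12 was past the threshold in both tables, with adjusted p from 4.31e-05 to 8.62e-05 in the larger and from 1.54e-05 to 3.37e-05 in the smaller. Serpina1e, under the first 3, had 0.00579 to 0.0112 in the smaller table and 0.230 to 0.439 in the larger. Each alternative reuses the deposited estimates, and the values of both genes chose the family, so these ranges are a description and no separate support. Leaving out genes that share words removes Serpina1e, so members called higher in the smaller table went from 1 to 0. Serpina6 ranged from 0.248 to 0.479 and from 0.264 to 0.522. The summed log2 fold change of the measured Serpina1 copies, 0.08 and 0.07, became 0.0072 and -0.052 as a plain median. With 75-base words the shared percent fell to 73.6 for Serpina1c, 49.3 for Serpina1a, 19.7 for Serpina1e, 19.0 for Serpina1b and 1.46 for Serpina3n, and stayed 0 for Serpina12 and Serpina6. Longest transcripts in place of the union of exons raised levels per kilobase by up to 1.37 times (Serpina1b, from 144236 to 197690 in the larger table), which moved Serpina1b above Serpina1e in both tables. No paired analysis was possible because the tables hold no values per library, and for the same reason no library could be left out. Depth per library and treatment of reads shared between copies limit all values of the Serpina1 and Serpina3 genes.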
